A study of Mus musculus with 9 samples.

Results

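The D-type cyclins (Ccnd1, Ccnd2 and Ccnd3), their kinase partners Cdk4 and Cdk6, and 5 inhibitors of cyclin-dependent kinases (Cdkn1a, Cdkn1b, Cdkn1c, Cdkn2c and Cdkn2d) were followed across the 9 arrays of a knockdown experiment. The members were taken as all array probes whose accession belongs to 1 of these 10 genes, out of 16535 genes named on the array. The 10 genes had 14 probes, 3 for Ccnd2, 2 each for Cdk6 and Cdkn1b and 1 for each of the others, and all 14 passed the filter on dim probes and read well above background on all 9 arrays. FDCPmix is a mouse blood progenitor line that keeps several lineage options open while it grows in self-renewal conditions. Cells of this 1 line were transduced with lentivirus that carried short hairpin RNA against Gata2 (labelled shGata2 LLX, here Gata2 KD), short hairpin RNA against Pu.1, the common name of Spi1 (shPu1 LLX, here Pu.1 KD), or nothing beyond the Empty vector (EV). On day 5 living cells that carried the GFP of the vector were sorted, and 150 ng of total RNA from each of 3 samples per group went onto 1-color Agilent arrays. The labels call the samples triplicates without saying whether they were separate cultures, so the p-values measure the spread between these samples. They do not give the number of hairpins per target.

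D-type cyclins bind CDK4 or CDK6, and the active pair phosphorylates the retinoblastoma protein, which frees E2F factors to switch on the genes of S phase. Growth factors and cytokines act on this step, because they raise D-type cyclins as long as the signal lasts. Inhibitors of the INK4 family (Cdkn2a to Cdkn2d) bind CDK4 and CDK6 alone, whereas those of the CIP/KIP family (p21 from Cdkn1a, p27 from Cdkn1b and p57 from Cdkn1c) bind cyclin-kinase pairs more broadly. In blood cells CDK6 is a main partner of the D-type cyclins, p57 is known for holding stem cells quiescent, and p21 is the best known target of the tumor suppressor p53.

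Promoter sequence from RefSeq (build GRCm38.p6, 250 bases before to 50 after a transcription start) was held for 7 of the 10 genes, in 10 windows of 300 bases. None was held for Ccnd1, Ccnd2 and Cdkn1c, which were therefore not searched. The windows of Cdkn1a, Cdk6 and Cdkn2c are shown, because these 3 genes stood lower in Gata2 KD than in the Pu.1 KD group. Ccnd2 and Cdkn1c were called lower there too. Capitals mark matches to the motifs searched, on both strands: for GATA factors AGATAA or AGATAG or TGATAA or TGATAG, for PU.1 GGAAGTG, for E2F TTTCGCGC or TTTGGCGC or TTTCCCGC, and for p53 its half-site or a pair of half-sites side by side with at most 1 letter off the pattern.
Cdkn1a upstream start, chr17:29090729-29091028, plus strand: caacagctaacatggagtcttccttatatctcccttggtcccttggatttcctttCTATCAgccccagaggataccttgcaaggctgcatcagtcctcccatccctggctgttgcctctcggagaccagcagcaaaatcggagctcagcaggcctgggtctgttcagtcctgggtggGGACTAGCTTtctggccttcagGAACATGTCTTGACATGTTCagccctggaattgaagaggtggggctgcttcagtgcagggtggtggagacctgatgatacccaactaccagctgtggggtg
Cdkn1a downstream start, chr17:29093519-29093818, plus strand: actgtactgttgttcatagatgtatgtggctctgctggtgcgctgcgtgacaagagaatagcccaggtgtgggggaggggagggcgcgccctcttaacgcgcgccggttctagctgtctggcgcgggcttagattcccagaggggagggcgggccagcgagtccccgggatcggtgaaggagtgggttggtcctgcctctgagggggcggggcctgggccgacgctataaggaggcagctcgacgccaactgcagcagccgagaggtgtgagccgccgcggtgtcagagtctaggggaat
Cdk6, chr5:3343643-3343942, plus strand: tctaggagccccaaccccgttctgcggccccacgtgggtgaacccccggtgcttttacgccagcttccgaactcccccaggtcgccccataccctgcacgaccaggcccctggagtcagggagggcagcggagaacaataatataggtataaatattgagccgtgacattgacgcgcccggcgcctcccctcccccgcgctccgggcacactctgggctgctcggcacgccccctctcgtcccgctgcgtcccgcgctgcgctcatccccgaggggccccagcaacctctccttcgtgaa
Cdkn2c, GC-poor window, chr4:109665323-109665622, minus strand: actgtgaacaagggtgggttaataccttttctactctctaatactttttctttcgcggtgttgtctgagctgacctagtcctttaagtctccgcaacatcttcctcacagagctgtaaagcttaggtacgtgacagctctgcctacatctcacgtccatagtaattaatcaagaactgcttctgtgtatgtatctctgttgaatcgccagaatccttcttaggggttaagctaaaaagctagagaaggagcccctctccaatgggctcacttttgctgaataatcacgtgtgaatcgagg
Cdkn2c, GC-rich window, chr4:109666707-109667006, minus strand: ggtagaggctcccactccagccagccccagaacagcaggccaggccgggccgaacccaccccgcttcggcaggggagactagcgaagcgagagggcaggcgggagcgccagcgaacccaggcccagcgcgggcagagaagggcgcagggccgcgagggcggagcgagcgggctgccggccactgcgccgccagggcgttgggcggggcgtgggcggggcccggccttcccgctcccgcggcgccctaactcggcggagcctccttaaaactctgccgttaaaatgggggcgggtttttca
The upstream Cdkn1a window held a p53 site of 20 bases, 1 letter off the pattern, whose first base lay 51 bases before the start. Its first 10 bases are a perfect half-site, another half-site began 73 bases before the start, and the capitals farthest upstream are a GATA match 195 bases before it. A p53 site of this form was present in 29 of 32851 mouse promoter windows (0.0883%), a half-site in 8.36%, a GATA match in 29.8%, the PU.1 motif in 11% and an E2F motif in 1.84%. The windows of Cdk6 and Cdkn2c and the downstream window of Cdkn1a held none of these motifs. The window of Ccnd3 with the lower coordinate held the PU.1 motif, that of Cdkn2d held a p53 half-site, and the windows of Cdk4 and Cdkn1b held none. These matches describe the letters and are not evidence of binding.

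Both targets were lowered in their own group. Gata2 changed by -1.61 on the log2 scale in Gata2 KD against EV (adjusted p 0.00414, limma) and by -0.15 in Pu.1 KD (0.964), and Spi1 changed by -1.73 in Pu.1 KD (0.00178) and by 1.39 in Gata2 KD (0.0012). The 9 arrays lay on 3 slides, each with 1 array of every group, so slide and group can be told apart. The share of spots well above background was 80.4% to 89.6% per array, and none was saturated. EV replicate 3 stood somewhat apart: its correlation across probes with the other arrays averaged 0.96, where the other 8 arrays averaged 0.971 or more. Markers of some mature blood cell types moved strongly. All 11 neutrophil markers were higher in Gata2 KD than in EV and 9 of 11 were lower in Pu.1 KD. The mean log2 level of these 11 probes on an array was 1.1 to 1.18 in EV, 3.98 to 4.24 in Gata2 KD and -0.39 to -0.16 in Pu.1 KD. For 7 monocyte and macrophage markers it was -1.15 to -0.81, 2.09 to 2.18 and -1.79 to -1.49, and for 8 mast cell and basophil markers 2.53 to 2.66, 0.69 to 0.71 and 2.23 to 2.26 in the same order. Every one of these markers read well above background on every array. In Gata2 KD 6 of 7 monocyte and macrophage markers were called higher and 7 of 8 mast cell and basophil markers lower. In Pu.1 KD 2 of 7 monocyte and macrophage markers were lower. Of the 8 mast cell and basophil markers 3 were lower there and 1, Cma1, was higher. Of 8 progenitor markers 2 were higher and 2 lower in Gata2 KD, and 1 of 8 in each direction in Pu.1 KD. In Gata2 KD 2 of 5 eosinophil and 1 of 6 megakaryocyte markers were higher. There 2 of 8 erythroid markers were lower, and 0 of 6 lymphoid markers were called. In Pu.1 KD 3 of 5 eosinophil and 1 of 6 lymphoid markers were lower. Of the erythroid and megakaryocyte markers, 2 each were higher. Of all genes, 4.21% were called higher and 2.95% lower in Gata2 KD, and 1.45% and 2.16% in Pu.1 KD. The part of this change in cell state in the values below was not tested.

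Levels are given on the log2 scale relative to the probe at the 75th percentile of that array, so that 0 is the brightness of that probe and 1 unit is a doubling. Levels of different probes are not comparable with each other. A gene with several probes is represented by its brightest. Against EV, Gata2 KD raised Ccnd1 and lowered Cdk6 and Cdkn1c, and Pu.1 KD raised Ccnd2. Set directly against Pu.1 KD, Gata2 KD had lower Ccnd2, Cdk6, Cdkn1a, Cdkn1c and Cdkn2c, while Ccnd3, Cdk4, Cdkn1b and Cdkn2d passed the test in no comparison. In Gata2 KD 1 of the 10 members was called higher than in EV, where 4.21% of all 15808 genes tested were, and 2 were called lower, where 2.95% were. In Pu.1 KD 1 member was called higher, beside 1.45% of all genes, and 0 lower, beside 2.16%, with 0 lower also at an unadjusted p under 0.05 in limma. Between the knockdowns 5 of 10 were lower in Gata2 KD, beside 5.6% of all genes, and 0 were higher, beside 6.77% (1, Ccnd1, at an unadjusted p under 0.05). The F test over the 3 groups called 4 members (Ccnd2, Cdk6, Cdkn1c and Cdkn2c), beside 11.7% of all genes. Groups did not overlap for 6 members in Gata2 KD against EV, 5 in Pu.1 KD against EV and 7 between the knockdowns, where 23.1%, 20.5% and 30.1% of all genes did not. The median change of the 10 members was -0.09, 0.23 and -0.42 in the 3 comparisons, and that of all genes -0.09, -0.04 and -0.03. The members were chosen with earlier results of these data known, so these counts and medians are not independent evidence. Both comparisons with EV rest on the same 3 EV arrays. In RNA from a bulk of cells, fewer cells of a type and less RNA per cell cannot be told apart.

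**Figure D1:**
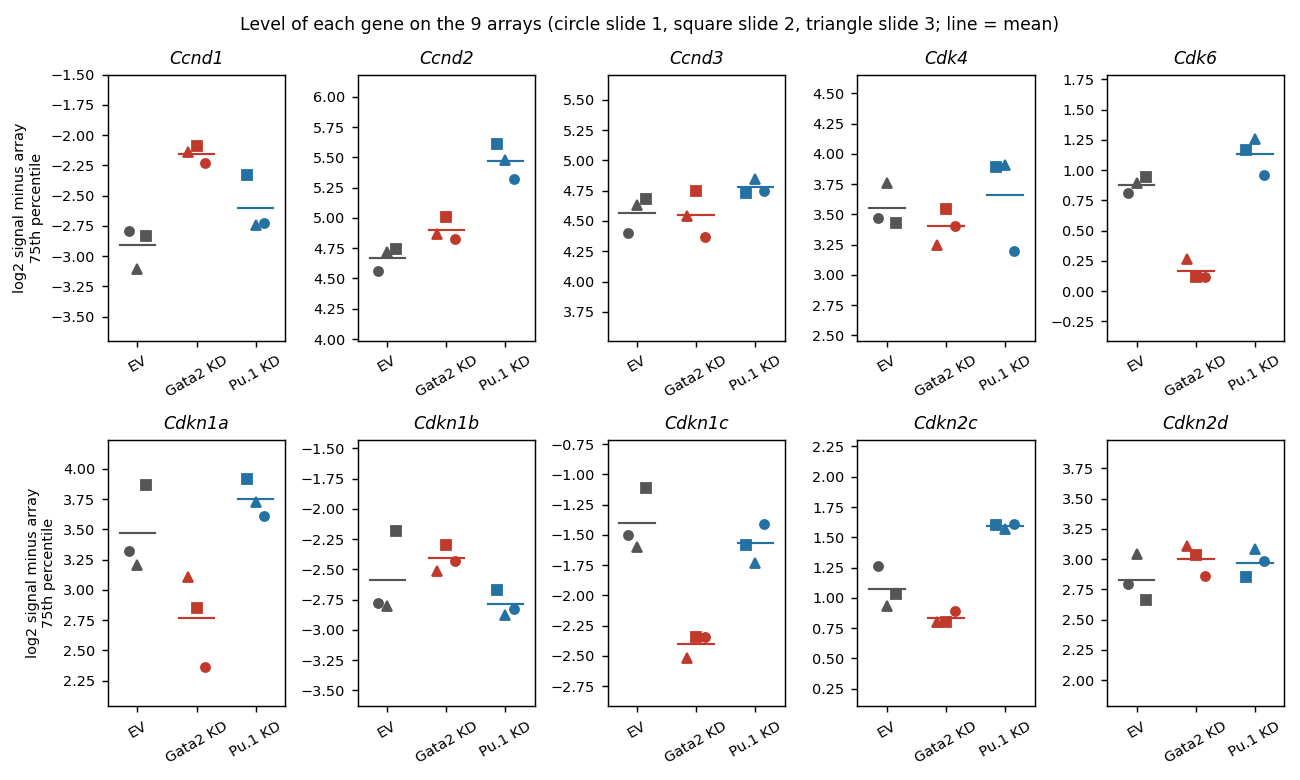
Level of the 10 genes on each of the 9 arrays (log2 units relative to the 75th percentile on the same array, vertical axes all spanning the same range of log2 units), with the mean of each group as a line and the slide as the marker shape. The Gata2 KD points lie below all EV points for Cdk6, Cdkn1a, Cdkn1c and Cdkn2c and above them for Ccnd1 and Ccnd2, and the Pu.1 KD points lie above all EV points for Ccnd2, Cdkn2c, Ccnd1, Ccnd3 and Cdk6.

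Among the D-type cyclins, Ccnd1 was called higher in Gata2 KD and Ccnd2 in Pu.1 KD, and on the probe that stands for each gene both lay above all EV arrays in both knockdowns. Ccnd1 encodes cyclin D1. It read -2.79, -3.11 and -2.83 on the 3 EV arrays, -2.14, -2.09 and -2.23 on the Gata2 KD arrays and -2.33, -2.74 and -2.73 on the Pu.1 KD arrays, each value a mean over 7 to 10 spots of the same probe. All Gata2 KD arrays were above all others, and the Pu.1 KD arrays lay between the other groups without touching either. The rise in Gata2 KD was 0.75 in log2 units with an SE of 0.16, or 1.68-fold (95% interval 0.38 to 1.13, adjusted p 0.0357), and ranged from 0.55 to 0.97 within the slides. The call was lost in 8 of the 9 fits that left out 1 array, all except that without Pu.1 KD replicate 1, with a change of 0.65 to 0.81 over the 9 fits and an adjusted p of 0.0551 to 0.155 where it was lost. Normexp background correction, which brought the change to 0.46 (adjusted p 0.0624), lost it too. In Pu.1 KD Ccnd1 changed by 0.31 (-0.07 to 0.68, adjusted p 0.559). The direct difference of 0.45 between the knockdowns was not called (0.07 to 0.82, adjusted p 0.168, 0.0733 with slide as a block). The spots of this probe on 1 array had an SD of 0.037 to 0.191, against an SD between arrays of 0.18 in EV, 0.07 in Gata2 KD and 0.24 in Pu.1 KD.

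Ccnd2, the cyclin D2 gene, rose in Pu.1 KD. Its brightest probe read 4.56, 4.72 and 4.74 in EV, 4.87, 5.01 and 4.83 in Gata2 KD and 5.61, 5.48 and 5.32 in Pu.1 KD. The groups were thus fully ordered, with EV lowest and Pu.1 KD highest. The rise in Pu.1 KD was 0.80 with an SE of 0.14, or 1.74-fold (0.48 to 1.11, adjusted p 0.0214), and lay between 0.76 and 0.87 on each slide. In Gata2 KD the change was 0.23 (-0.08 to 0.54, adjusted p 0.557), and the difference Gata2 KD minus Pu.1 KD was -0.56 (-0.87 to -0.25, adjusted p 0.0352).

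The other Ccnd2 probes gave similar sizes. The second probe read 4.49, 4.79 and 4.92 in EV, 5.07, 4.94 and 4.69 in Gata2 KD and 5.40, 5.52 and 5.21 in Pu.1 KD. Its rise of 0.65 in Pu.1 KD missed the threshold (adjusted p 0.115, 0.0205 with slide as a block). The fit with slide as a block called more of all probes too, 1875 in place of 986 in Pu.1 KD against EV. The third probe read 4.18, 4.34 and 4.08 in EV, 4.50, 4.62 and 4.41 in Gata2 KD and 5.05, 5.30 and 4.85 in Pu.1 KD, a rise of 0.86 (adjusted p 0.028). On all 3 probes every Pu.1 KD array was above every array of the other groups. The direct difference between the knockdowns was -0.48 and -0.55 on these probes in the same order (adjusted p 0.159 and 0.0697, and 0.0244 and 0.0311 with slide as a block). For the brightest probe the rise in Pu.1 KD was lost in 5 of 9 fits without 1 array (those without EV replicates 1 or 2 or any Pu.1 KD replicate), with a change of 0.73 to 0.87 over the 9 and an adjusted p of 0.0551 to 0.106 where lost. The direct difference was lost in 7 of 9 (-0.64 to -0.50, adjusted p 0.0523 to 0.141 where lost) and kept without EV replicates 1 or 3. It was also lost when the mean over the 3 probes stood for the gene.

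Ccnd3, the third D-type cyclin gene, did not pass the test. It read 4.40, 4.63 and 4.68 in EV, 4.54, 4.75 and 4.37 in Gata2 KD and 4.73, 4.85 and 4.75 in Pu.1 KD. The EV and Gata2 KD arrays covered nearly the same range, and the Pu.1 KD arrays lay just above EV. The changes were -0.02 in Gata2 KD (-0.36 to 0.32, adjusted p 0.993), 0.20 in Pu.1 KD (-0.13 to 0.54, 0.765) and -0.22 between the knockdowns (-0.56 to 0.12, 0.584).

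**Figure D2:**
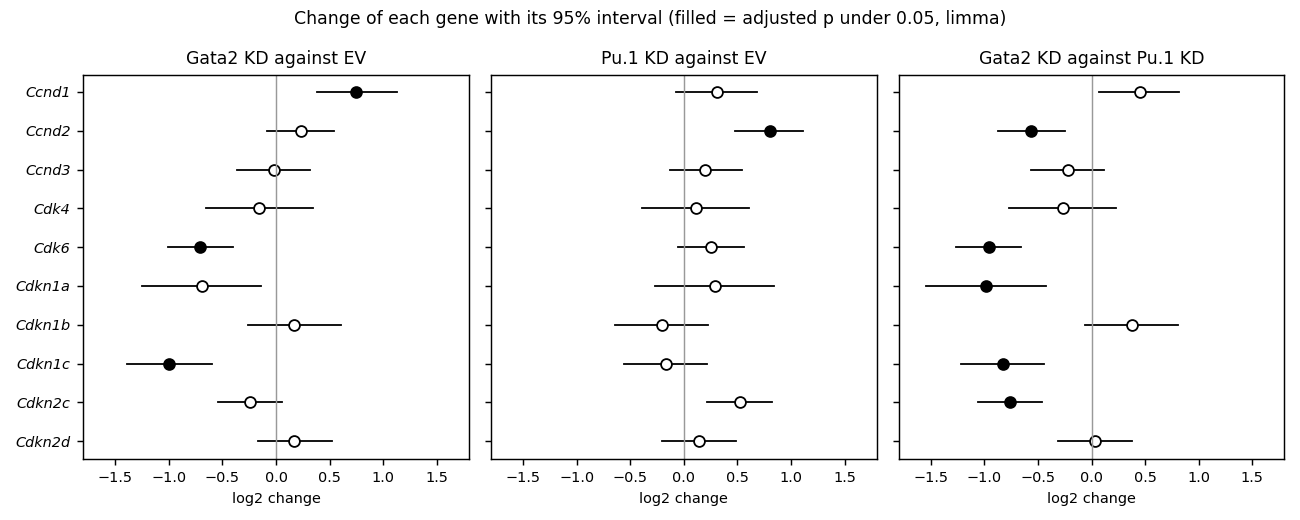
Log2 change of each gene (points) with its 95% interval (lines) in the 3 comparisons, from limma over all 9 arrays, with filled points for an adjusted p under 0.05. The filled points are Ccnd1, Cdk6 and Cdkn1c in the first panel, Ccnd2 in the second and Ccnd2, Cdk6, Cdkn1a, Cdkn1c and Cdkn2c in the third.

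Of the kinases, Cdk6 fell in Gata2 KD and Cdk4 did not pass the test. The brighter Cdk6 probe read 0.81, 0.89 and 0.94 in EV, 0.27, 0.12 and 0.12 in Gata2 KD and 1.17, 1.26 and 0.96 in Pu.1 KD. Every Gata2 KD array lay well below every other array, and the lowest Pu.1 KD array lay just above the highest EV array. The change in Gata2 KD was -0.71 with an SE of 0.13, or 1.63-fold lower (-1.01 to -0.40, adjusted p 0.0177), and ranged from -0.82 to -0.62 within the slides. In Pu.1 KD it was 0.25 (-0.05 to 0.56, adjusted p 0.544). The difference between the knockdowns was -0.96, or 1.95-fold (-1.26 to -0.66, adjusted p 0.00217). It had the smallest adjusted p of any member in that comparison, and it held in all 21 alternatives tried, with a change of -1.04 to -0.72 and an adjusted p of 0.000244 to 0.0311. The fall against EV was lost without EV replicate 2 (adjusted p 0.0664), Gata2 KD replicate 2 (0.0947) or Gata2 KD replicate 3 (0.0784), and with scaling to the array median (-0.66, adjusted p 0.228). The second Cdk6 probe read -0.79, -0.83 and -0.93 in EV, -1.38, -1.04 and -1.16 in Gata2 KD and -0.69, -0.66 and -0.80 in Pu.1 KD. It had the same order of EV and Gata2 KD without overlap, but smaller and uncalled changes. These were -0.34 against EV (adjusted p 0.288) and -0.47 against Pu.1 KD (0.0713). With slide as a block they stayed uncalled (0.17 and 0.0516). The probes of Cdk6 therefore gave different sizes for the same comparison.

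Cdk4 read 3.47, 3.76 and 3.43 in EV, 3.25, 3.54 and 3.40 in Gata2 KD and 3.89, 3.91 and 3.20 in Pu.1 KD. The groups overlapped throughout, and the Pu.1 KD arrays alone had an SD of 0.41. The changes were -0.16 (-0.65 to 0.34, adjusted p 0.925), 0.11 (-0.39 to 0.61, 0.988) and -0.27 (-0.77 to 0.23, 0.734) in Gata2 KD, Pu.1 KD and between the knockdowns.

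**Figure D3:**
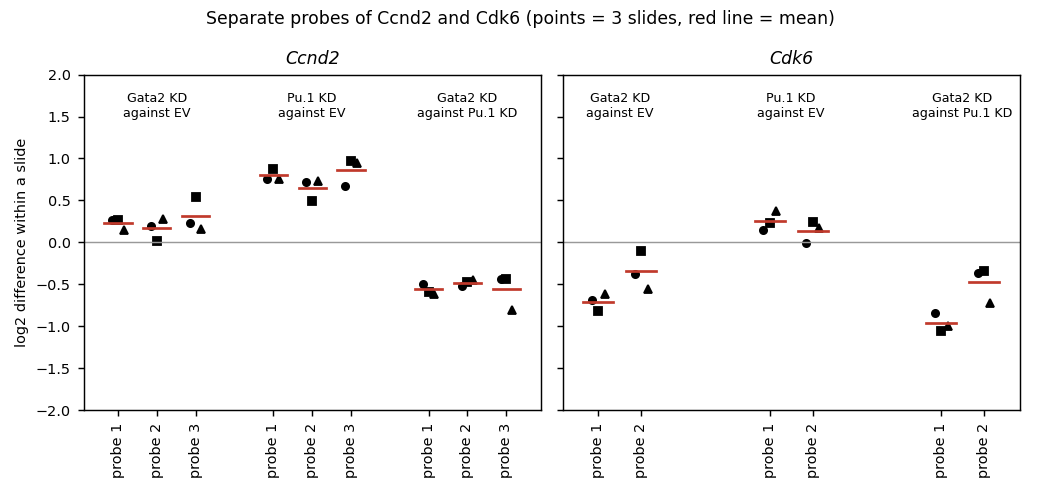
Log2 differences between groups within each of the 3 slides (points, slide 1 circle, slide 2 square, slide 3 triangle) and their mean (red line) for the 3 probes of Ccnd2 and the 2 of Cdk6, brightest first. All Ccnd2 points lie above 0 in Pu.1 KD against EV, and the Cdk6 points of the brighter probe lie farther from 0 than those of the second probe where Gata2 KD is involved.

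The CIP/KIP inhibitors differed among themselves. Cdkn1c, which encodes p57, read -1.50, -1.60 and -1.11 in EV, -2.52, -2.34 and -2.34 in Gata2 KD and -1.58, -1.73 and -1.41 in Pu.1 KD. The Gata2 KD arrays stood apart below all 6 others, and EV and Pu.1 KD overlapped. The fall in Gata2 KD against EV was -1 with an SE of 0.17, or 1.99-fold (-1.39 to -0.60, adjusted p 0.0114), and ranged from -1.22 to -0.84 within the slides. It was called in all 9 fits without 1 array (-1.09 to -0.85, adjusted p up to 0.0493), and of 21 alternatives only the fit on the 2 groups alone lost it (adjusted p 0.0503). Pu.1 KD changed it by -0.17 (-0.56 to 0.22, adjusted p 0.901). The difference between the knockdowns was -0.83 (-1.22 to -0.44, adjusted p 0.0172), lost without any of the Gata2 KD replicates or without Pu.1 KD replicates 1 or 3 (-0.86 to -0.74, adjusted p 0.0522 to 0.0722). Normexp background correction gave smaller changes, still called, of -0.67 against EV (adjusted p 0.013) and -0.55 between the knockdowns (0.0254).

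Cdkn1a, which encodes p21, differed between the knockdowns, and neither knockdown alone differed from EV past the threshold. It read 3.32, 3.21 and 3.87 in EV, 3.11, 2.85 and 2.36 in Gata2 KD and 3.92, 3.73 and 3.61 in Pu.1 KD, means over 9 or 10 spots with an SD between spots of at most 0.111. The Gata2 KD arrays were the lowest and the most spread, and EV replicate 3 was as high as the Pu.1 KD arrays. The difference Gata2 KD minus Pu.1 KD was -0.98 with an SE of 0.24, or 1.97-fold (-1.54 to -0.42, adjusted p 0.0396), with -1.24, -1.08 and -0.62 on slides 1, 2 and 3. This call was lost in 6 of 9 fits without 1 array (EV replicate 1, Gata2 KD replicates 2 or 3, or any Pu.1 KD replicate; adjusted p 0.0582 to 0.144), without the filter on dim probes (0.0532) and with scaling to the array median (0.0696). Against EV the change in Gata2 KD was -0.69 (-1.25 to -0.14, adjusted p 0.202, 0.089 with slide as a block). In Pu.1 KD it was 0.29 (-0.27 to 0.84, adjusted p 0.841). Without EV replicate 3 these changes were -0.49 (adjusted p 0.449) and 0.49 (0.525).

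Cdkn1b, which encodes p27, passed the test in no comparison. Its brighter probe read -2.78, -2.80 and -2.18 in EV, -2.51, -2.30 and -2.43 in Gata2 KD and -2.67, -2.88 and -2.83 in Pu.1 KD. EV replicate 3 was the highest of all 9 arrays, and every Gata2 KD array was above every Pu.1 KD array. The direct difference was 0.38 (-0.06 to 0.81, adjusted p 0.37) and nearly the same on each slide (0.36 to 0.40), and the changes against EV were 0.17 (-0.26 to 0.61, 0.872) and -0.20 (-0.64 to 0.23, 0.876). Without EV replicate 3 the latter were 0.38 (adjusted p 0.289) and 0 (1). The second probe was dimmer, at means of -4.63, -4.72 and -4.75 in EV, Gata2 KD and Pu.1 KD with an SD of 0.26 to 0.58, and gave changes of -0.12 to 0.03.

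The INK4 inhibitor Cdkn2c encodes p18. Like Cdk6 on its brighter probe, it kept its difference between the knockdowns in all alternatives. It read 1.26, 0.93 and 1.03 in EV, 0.80, 0.80 and 0.89 in Gata2 KD and 1.60, 1.57 and 1.61 in Pu.1 KD. The 3 groups did not overlap, with Gata2 KD lowest and Pu.1 KD highest. The difference Gata2 KD minus Pu.1 KD was -0.76 with an SE of 0.13, or 1.70-fold (-1.06 to -0.46, adjusted p 0.00713), at -0.72, -0.80 and -0.77 on the 3 slides. All 21 alternatives kept this call (-0.79 to -0.72, adjusted p 0.00122 to 0.0401). The rise in Pu.1 KD against EV was 0.52, or 1.43-fold (0.22 to 0.82), which missed the threshold (adjusted p 0.0947) and passed it with slide as a block (0.0386). In Gata2 KD the change was -0.24 (-0.54 to 0.06, adjusted p 0.504).

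Cdkn2d, which encodes p19 of the INK4 family, read 2.79, 3.04 and 2.66 in EV, 3.11, 3.03 and 2.86 in Gata2 KD and 2.85, 3.08 and 2.98 in Pu.1 KD. All groups overlapped. Its changes were 0.17 (-0.17 to 0.52, adjusted p 0.801), 0.14 (-0.20 to 0.49, 0.912) and 0.03 (-0.31 to 0.38, 1).

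Further inhibitors outside the 10 genes were Cdkn2a and Cdkn2b, the 2 tested of a list of 3. Cdkn2b, which encodes p15, an inhibitor induced by TGF-beta in many cells, read 0.25, 0.78 and 0.72 in EV, -1.15, -1.27 and -1.38 in Gata2 KD and 1.38, 1.25 and 1.33 in Pu.1 KD. The groups were ordered as for Cdkn2c and farther apart. It fell in Gata2 KD by 1.85 on the log2 scale, or 3.60-fold (adjusted p 0.000384), and the difference Gata2 KD minus Pu.1 KD was -2.59, or 6-fold (-2.97 to -2.20, adjusted p 3.22e-05). Its change in Pu.1 KD against EV was 0.74 (adjusted p 0.0663, 0.0348 with slide as a block). Cdkn2a read -0.72, -0.57 and 1.58 in EV, so EV replicate 3 stood far above the other EV arrays, and -0.98, -1.90 and -1.66 in Gata2 KD and 0.12, -0.47 and 0.41 in Pu.1 KD. No change of Cdkn2a was called, with -1.61 in Gata2 KD (adjusted p 0.227) and -0.08 in Pu.1 KD (1).

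**Figure D4:**
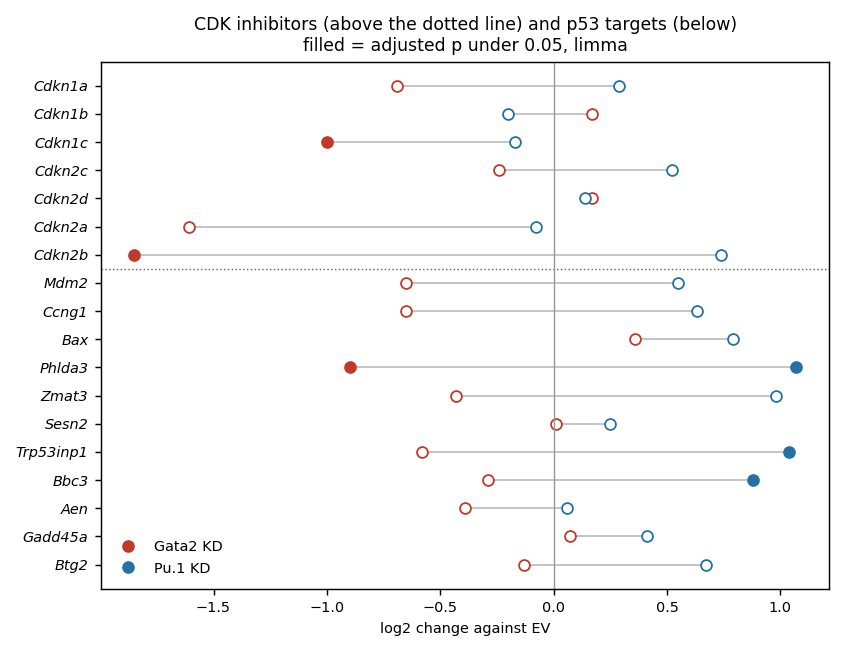
Log2 change against EV in Gata2 KD (red) and Pu.1 KD (blue) for 7 CDK inhibitor genes (above the dotted line) and 11 p53 target genes (below it), with filled points for an adjusted p under 0.05 in limma. Cdkn2b and Phlda3 lie far apart in the knockdowns, and Cdkn1b is the inhibitor with its Pu.1 KD point to the left of its Gata2 KD point by the largest margin.

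Cdkn1a is a p53 target, and 11 other p53 targets were tested of a list of 12. In Gata2 KD 0 rose and 1 fell, Phlda3, and in Pu.1 KD 3 rose, Phlda3, Trp53inp1 and Bbc3, and 0 fell. The 0 rising in Gata2 KD and the 0 falling in Pu.1 KD were also 0 at an unadjusted p under 0.05 in limma. Between the knockdowns 7 of 11 were lower in Gata2 KD and 0 higher (0 unadjusted too). Of all genes tested, 2.95% were called lower in Gata2 KD, 1.45% higher in Pu.1 KD and 5.6% lower in Gata2 KD in the direct comparison. The median change of the 11 was -0.39, 0.67 and -1.17 in the 3 comparisons, beside -0.09, -0.04 and -0.03 for all genes. The list was chosen with earlier results of these data known, so these counts and medians are not independent evidence. With slide as a block 4 fell in Gata2 KD, 5 rose in Pu.1 KD and the direct count was again 7, in a fit that called more of all probes too (2886, 1875 and 5168 in place of 1902, 986 and 3524). Phlda3, an inhibitor of AKT signaling, read 3.58, 3.74 and 3.68 in EV, 2.85, 2.89 and 2.55 in Gata2 KD and 4.60, 4.84 and 4.77 in Pu.1 KD. Its groups did not overlap, with changes of -0.90 (adjusted p 0.00827) and 1.07 (0.00908) against EV. Bbc3, which encodes the death-promoting protein PUMA, rose in Pu.1 KD by 0.88 (adjusted p 0.00896), from 3.63, 3.78 and 3.66 in EV to 4.48, 4.64 and 4.59. Trp53inp1, a stress-induced gene, rose by 1.04 (adjusted p 0.0467), from 2.63, 2.86 and 2.37 to 3.37, 3.90 and 3.72. Trp53 itself, the gene of p53, changed by -0.05 in Gata2 KD (adjusted p 0.986) and 0.00 in Pu.1 KD (1). The arrays of Cdkn1a had the same order of group means as Phlda3, with wider spread. Not all of the 11 targets had this order, and whether Cdkn1a and the targets share a cause was not tested.

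Of 9 upstream regulators of the members, 1 rose and 2 fell in Gata2 KD, beside 4.21% and 2.95% of all genes. In Pu.1 KD 0 were called in either direction, beside 1.45% and 2.16% (1 higher and 0 lower at an unadjusted p under 0.05 in limma), and whether the list as a whole changed less there was not tested. Between the knockdowns 1 was higher and 2 were lower in Gata2 KD, beside 6.77% and 5.6% of all genes. Bcl6, a repressor that acts on Ccnd2 among other genes, read -2.10, -2.32 and -1.96 in EV, -0.27, -0.41 and -0.60 in Gata2 KD and -1.39, -1.53 and -1.31 in Pu.1 KD. It rose in Gata2 KD by 1.69, or 3.23-fold (adjusted p 0.000384), and its change in Pu.1 KD was 0.71 (adjusted p 0.0535, 0.0439 with slide as a block). Stat5a, which carries the IL-3 signal to D-type cyclin genes, read 3.01, 3.04 and 3.27 in EV, 2.07, 2.03 and 2.02 in Gata2 KD and 2.95, 2.97 and 3.30 in Pu.1 KD. It fell in Gata2 KD by 1.07 (adjusted p 0.00382), with the Gata2 KD arrays below all others, and its change in Pu.1 KD was -0.03 (1). Mycn, a growth-promoting transcription factor, fell in Gata2 KD by 1.16 (adjusted p 0.0277), from 2.07, 2.48 and 2.35 in EV to 1.65, 0.91 and 0.86. Myc changed by 0.28 in Gata2 KD (adjusted p 0.49) and by 0.00 in Pu.1 KD (1).

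In the remaining pathway lists no gene was called against EV. They hold genes downstream of the D-type cyclins as well as genes for the turnover of cyclins and inhibitors. Of all genes, 4.21% were called higher and 2.95% lower in Gata2 KD, and 1.45% and 2.16% in Pu.1 KD. At these shares, 0 called in a list of this size is no result about its genes. Of 13 pocket proteins and E2F factors, 0 were called in either knockdown (0 higher and 5 lower at an unadjusted p under 0.05 in Gata2 KD, and 2 higher and 1 lower in Pu.1 KD, limma), with median changes of -0.24 and 0.03. Between the knockdowns 2 of the 13 were lower in Gata2 KD, beside 5.6% of all genes. Of 8 genes of cyclin E, cyclin A and CDK2, 0 were called (3 lower unadjusted in Gata2 KD, 0 in Pu.1 KD), and their medians were -0.28 and -0.19. Of 9 genes for the turnover of D-type cyclins and inhibitors, 0 were called (1 higher and 1 lower unadjusted in Gata2 KD, 2 lower in Pu.1 KD), with medians of -0.20 and -0.01. Of 15 replication and mitosis markers, 0 were called (4 lower unadjusted in Gata2 KD, 1 lower in Pu.1 KD), with medians of -0.29 and -0.09 beside -0.09 and -0.04 for all genes. With slide as a block 2 pocket protein and E2F genes fell in Gata2 KD, 2 rose in Pu.1 KD, and 1 replication and mitosis marker fell in Gata2 KD. That fit called more of all probes too, 2886 in place of 1902 in Gata2 KD and 1875 in place of 986 in Pu.1 KD.

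The genes most like Cdk6 over the 9 arrays, by the root mean square difference of values centred on each gene's own mean, were Nupr1l (0.0808), Arl6 (0.0882) and Zfp93 (0.0905), among 15469 genes searched. The SD of Cdk6 over the arrays was 0.441. Their changes in Gata2 KD against EV were -0.69, -0.70 and -0.59, and in Pu.1 KD 0.34, 0.33 and 0.33. For Cdkn1c, with an SD of 0.489, they were Csgalnact1 (0.0995), Kifap3 (0.125) and Dtnb (0.126), with changes of -0.93, -0.84 and -0.76 in Gata2 KD and 0.00, -0.09 and -0.04 in Pu.1 KD. Likeness over 9 arrays of 3 groups describes shared levels in these samples.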

How the data were processed

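FDCPmix RNA was hybridized to 9 single-color arrays, 3 per group, and the sample titles gave each array's group and number. The authors deposited the scanner intensity values from Agilent Feature Extraction 10.1.1.1, including the processed signal (background-subtracted, not scaled between arrays). They also deposited a table of log2 values, whose detailed processing is not given in the sources used here and which served as an alternative. Outlier-flagged spots were left out, spots of a probe were averaged as log2 processed signal, and the 75th percentile over probes was subtracted per array. Probes well above background on at least 3 arrays, with 2 or more values per group, were tested (36585 of 41174) by linear models with 1 mean per group fitted to all 9 arrays (limma 3.58.1, R 4.3.3), moderated by eBayes, two-sided, with Benjamini-Hochberg adjustment across every tested probe and a threshold of 0.05. Probes with repeated spots needed at least 50% of these above background.

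Accessions named 23374 probes through a RefSeq table of GRCm38.p6, a build other than that of the array design, so no probe coordinates are given. For a gene with several probes the brightest stood for it. Signal above background and the number of arrays limit the precision. Members and gene lists were chosen with earlier results of these data known, so neither is independent evidence. Named genes were all members, up to 4 called genes of each pathway list with the largest change against EV, the targeted genes, and the 3 genes most like the 2 members with the smallest F test p. Cdkn2a, Trp53 and Myc were named outside that rule, after their values were seen. The fitting was tested on simulated data with independent noise on every array and no slide effect. That test therefore does not cover variation shared by arrays of 1 slide. Same-numbered arrays did not pair (their deviations from group means correlated over 0.1 in 4 of 9 pairs, from -0.552 to 0.652), whereas those of 1 slide did in 8 of 9 (from -0.0406 to 0.719). The alternatives were a replicate block, a slide block, normexp with an offset of 50, quantile and median scaling, no filter, a filter on all 9 arrays, flagged spots kept, trend and robust eBayes, the deposited log2 values, a fit on only the groups compared, the mean over a gene's probes, and each array left out.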

Additional observations from a re-analysis of the deposited data

How the results depend on the processing

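Of the 30 changes of the 10 genes in the 3 comparisons, none changed sign while called in any of up to 21 alternatives each. Of the 9 that were called, 2 stayed called throughout (Cdk6 and Cdkn2c between the knockdowns). The second Cdk6 probe by itself was not among the alternatives, and it was uncalled between the knockdowns (adjusted p 0.0713, limma). Of the 21 changes that were not called, 20 were never called, the exception being Cdkn2c in Pu.1 KD against EV. The number of members called in Gata2 KD against EV, 3, became 1 with the replicate block or median scaling and 0 with only the groups compared, and was 1 to 3 without 1 array. In Pu.1 KD against EV, 1 became 0 with the replicate block, median scaling or only the groups compared, 2 with slide as a block or with trend and robust eBayes, and 0 to 1 without 1 array. Between the knockdowns, 5 became 3 with the replicate block or median scaling and 2 to 5 without 1 array. By the F test, 4 became 2 with the replicate block and 1 with median scaling, 5 with normexp, flagged spots kept, the filter on all 9 arrays or trend and robust eBayes, 6 with slide as a block, quantile normalization or the deposited log2 values, and 2 to 4 without 1 array. Calls over all 36585 probes moved too: in the 3 comparisons 1902, 986 and 3524 became 1172, 234 and 2368 with the replicate block, 1203, 377 and 2259 with median scaling and 2886, 1875 and 5168 with slide as a block. The replicate numbers did not pair the arrays, whereas each slide held every group; median scaling moved the median change of all probes by at most 0.04. The replicate block and median scaling each lost Ccnd1 and Cdk6 in Gata2 KD against EV, Ccnd2 in both of its comparisons and Cdkn1a, and the fit on only the groups compared lost Ccnd1, Cdk6 and Cdkn1c in Gata2 KD against EV and Ccnd2 in both of its comparisons. The mean over a gene's probes lost Ccnd2 between the knockdowns. The cause of these shifts was not tested. Normexp background correction, with its offset of 50, moved Ccnd1 in Gata2 KD against EV from 0.75 to 0.46. It moved Cdkn1c between the knockdowns from -0.83 to -0.55. All member probes read well above background on every array, but these probes were dim. Their group means were -2.91 to -2.16 for Ccnd1 and -2.4 to -1.4 for Cdkn1c. The size of both changes therefore differed under this alternative. An offset by itself shrinks the log2 changes of dim probes, and the alternative started from the median rather than the processed signal. The parts of the offset, the signal used and the background correction were not tested apart.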
